A study of Mus musculus with 11 samples.

Results

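The milk proteins examined here are 8 mouse genes found by symbol among the 56691 genes of the count table: the caseins Csn1s1, Csn1s2a, Csn1s2b, Csn2 and Csn3, the whey proteins Wap and Lalba, and Glycam1. All 8 were matched to 1 Ensembl identifier each. They were followed across 11 libraries of thymic epithelial cells from NOD mice aged 4 to 8 weeks, a strain prone to autoimmune diabetes. All groups carry the NOD background, and the genotypes at Aire are WT/WT (3 libraries), WT/R249C (5) and R249C/R249C (3), grouped by title. R249C changes 1 amino acid of the Aire protein, so the level of its transcript is no check of the labels. Per the labels, CD45-expressing cells were depleted with beads, EpCAM-positive cells were sorted and low-input RNA libraries were made. The number of mice behind a library is not stated, and p-values below cover only the spread from library to library, which may be technical. In batch A are WT/WT replicate 1, WT/R249C replicates 1 to 3 and every R249C/R249C library. In batch B are WT/WT replicates 2 and 3 with WT/R249C replicates 4 and 5. Both WT/R249C libraries of batch B, replicates 4 and 5, carry contradicting labels: their genotype field reads R249C/R249C.

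Milk proteins are made in bulk by the lactating mammary gland, where prolactin acts through the kinase Jak2 and the transcription factor Stat5 to switch on caseins and whey proteins. Caseins form the micelles that carry calcium and phosphate in milk, and Lalba is the regulatory subunit of lactose synthase. In the thymus, some medullary epithelial cells transcribe genes of other tissues, many of them with the help of Aire, so that developing T cells meet the proteins of those tissues. Csn2 is widely used as an example of a gene that needs Aire there. Such genes are transcribed in few medullary cells at a time. In bulk libraries like these, fewer cells that transcribe a gene and less RNA per cell cannot be told apart.

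The 5 casein genes lie together on chromosome 5. In the RefSeq gene order of GRCm38.p6, Csn1s1, Csn2, Csn1s2a and Csn1s2b follow each other directly among protein-coding genes, and Csn3 comes after Prr27, Odam and BC037156. Csn2 is on the minus strand and the other 4 caseins are on the plus strand. Wap is on chromosome 11, and Lalba and Glycam1 are on chromosome 15. The counts were made on mm39, so the sequences below, from RefSeq on GRCm38.p6, describe the genes and not the mapped reads. The promoter table held 6 of the 8 genes, and Csn1s2b and Csn3 had no entry.

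The 250 bases before the start site are shown for Csn2 and Csn1s2a, the members with counts in every library, and for Csn1s1 and Glycam1, which had counts in only some. They are from chr5:87699426-87699675 (minus strand), chr5:87774200-87774449 (plus strand), chr5:87665958-87666207 (plus strand) and chr15:103565082-103565331 (minus strand), each read 5′ to 3′ toward the gene. Capitals mark the word TTCNNNGAA, the palindromic core to which Stat proteins bind.
Csn2: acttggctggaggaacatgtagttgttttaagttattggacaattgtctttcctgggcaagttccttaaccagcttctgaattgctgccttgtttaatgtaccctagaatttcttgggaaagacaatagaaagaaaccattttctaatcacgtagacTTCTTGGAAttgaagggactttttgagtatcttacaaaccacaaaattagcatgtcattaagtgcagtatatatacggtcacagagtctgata
Csn1s2a: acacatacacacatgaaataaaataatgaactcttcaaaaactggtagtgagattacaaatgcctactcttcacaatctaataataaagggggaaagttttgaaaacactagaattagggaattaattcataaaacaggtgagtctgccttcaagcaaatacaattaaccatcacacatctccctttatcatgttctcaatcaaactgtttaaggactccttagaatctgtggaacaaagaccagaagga
Csn1s1: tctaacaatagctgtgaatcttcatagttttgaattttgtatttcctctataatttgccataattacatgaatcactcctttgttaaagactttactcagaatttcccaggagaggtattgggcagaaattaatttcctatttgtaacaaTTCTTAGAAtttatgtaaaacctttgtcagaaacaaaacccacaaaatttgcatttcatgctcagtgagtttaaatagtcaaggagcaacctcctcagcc
Glycam1: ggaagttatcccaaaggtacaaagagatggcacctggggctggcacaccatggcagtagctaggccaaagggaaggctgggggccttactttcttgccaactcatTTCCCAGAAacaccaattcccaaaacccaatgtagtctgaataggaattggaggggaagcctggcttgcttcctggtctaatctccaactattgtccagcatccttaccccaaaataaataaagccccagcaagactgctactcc

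The word TTCNNNGAA, which reads the same on both strands, was in 3 of the 6 member windows, against 7.02% of 32851 RefSeq windows of the same length. It begins 93 bases before the start in Csn2, as TTCTTGGAA, 100 bases before it in Csn1s1, as TTCTTAGAA, and 145 bases before it in Glycam1, as TTCCCAGAA. The windows of Csn1s2a, Wap and Lalba do not hold these letters. TATAAA, searched on both strands, was in 0 of the 6 windows and in 12.4% of all windows. The member windows hold from 0 to 2 CG dinucleotides, while the median window holds 6 and 29.0% of all windows hold at most 2. The G and C share was 32.8% in Csn1s1, 34% in Csn1s2a and 36.8% in Csn2, against a median of 52.4% over all windows. In Wap, Lalba and Glycam1 it was 49.6%, 50.8% and 49.6%.

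Library totals ran from 60560348 to 182319976 counts. Levels are given as CPM, the counts scaled to a total of 1000000 per library. If the deposited numbers are tallied reads, which the sources used here do not say, a count of 0 allows a level of up to 0.0165 CPM in the deepest library and 0.0495 CPM in the shallowest, taking 3 counts as the limit. If they were computed from coverage, a 0 carries no such limit. Reads carry no molecular identifiers, so these limits cover counting error only. The epithelial markers Epcam, Foxn1, Krt8, Krt18, Krt5, Krt14 and Cdh1 summed to 3894 to 5059 CPM in WT/WT, 4204 to 6430 in WT/R249C and 4876 to 5562 in R249C/R249C. Aire was at 174 to 858 CPM, its highest and lowest libraries both carrying R249C. Of 7 B cell markers, the immunoglobulin light chain Igkc was at 734 to 1863 CPM in WT/WT, 69.2 to 283 in WT/R249C and 166 to 341 in R249C/R249C, while the other 6 summed to 48.3 to 75.7, 17.4 to 53.2 and 22.7 to 42.2 CPM. The 9 thymocyte markers summed to 148 to 213 CPM in WT/WT, 79.0 to 162 in WT/R249C and 68.7 to 128 in R249C/R249C. Of the 6 fibroblast markers, Dcn alone was at 671 to 1673 CPM over the libraries. All 6 summed to 1418 to 2143 CPM in WT/WT, 860 to 2002 in WT/R249C and 1225 to 2319 in R249C/R249C. The part of these cells in the milk-protein values was not tested.

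Csn2, beta-casein, was the main milk transcript of these cells, and Csn1s2a, also called gamma-casein, was the other member found everywhere. Csn2 and Csn1s2a had counts in 11 of 11 libraries, Csn3 in 7, Csn1s2b in 6, Glycam1 in 5, Csn1s1 and Wap in 4 each and Lalba in 3. Of the 40154 genes with any count, 41.6% had counts in all 11 libraries. Csn2 made up between 75.4% and 99.9% of the summed CPM of the 8 genes in a library.

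Per kilobase of the longest principal transcript in GENCODE M21, the level of Csn2 was 73.7 ± 48.7 CPM per kb (SD, n = 11) and that of Csn1s2a was 7.82 ± 6.71. Csn2 was above Csn1s2a in 11 of 11 libraries, by a ratio from 2.89 in WT/R249C replicate 5 to 861 in WT/R249C replicate 3, where Csn1s2a had 3 counts. Csn1s2a was above Glycam1, which came after it, in 9 of 11 libraries. The levels of the other 6 ran from 1.41 ± 3.35 CPM per kb for Glycam1 through 1.20 ± 2.55 for Csn1s2b, 0.888 ± 1.21 for Csn3, 0.761 ± 1.30 for Csn1s1 and 0.487 ± 0.855 for Wap to 0.132 ± 0.274 for Lalba. Each of these SDs is larger than its mean, and neighbours in this order did not differ beyond them. On the same scale Aire was at 275 CPM per kb.

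**Figure D1:**
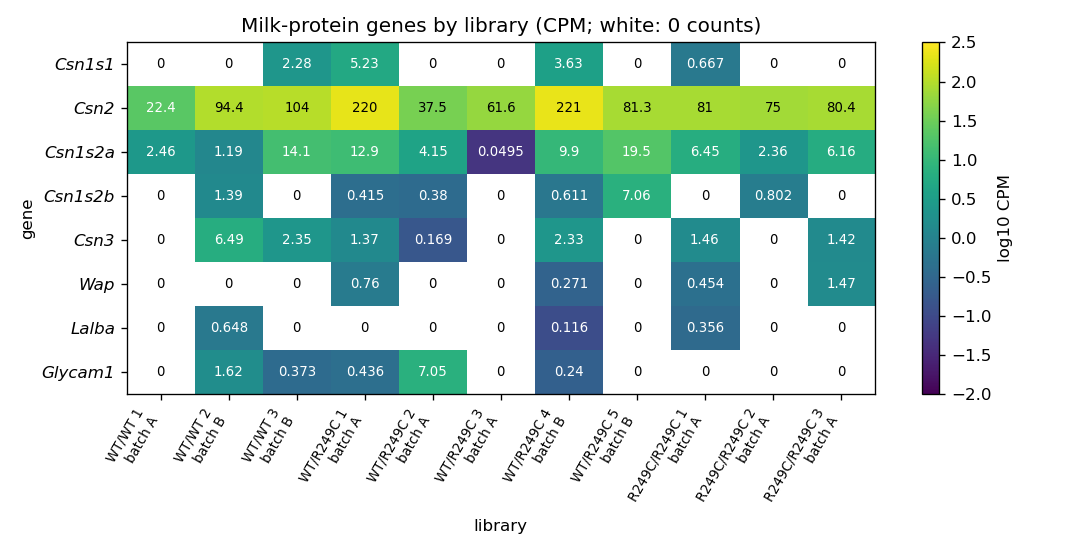
CPM of the 8 milk-protein genes (rows, caseins in chromosome order first) in the 11 libraries (columns, by genotype and batch), coloured on a log10 scale, with white cells for 0 counts. Csn2 and Csn1s2a fill their rows, while the other 6 genes are at 0 in 4 to 8 libraries each.

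The less common members were either at 0 or at a level well above single counts. Of the 88 values (8 genes in 11 libraries), 37 were at 0, 50 were 10 counts or more and 1 was between 1 and 9, the 3 counts of Csn1s2a in WT/R249C replicate 3. Over all genes, 14.4% of the values above 0 were between 1 and 9 counts. Which members were present differed from library to library: WT/R249C replicate 4 had counts for all 8 genes and WT/R249C replicate 1 for 7, while WT/WT replicate 1 and WT/R249C replicate 3 had counts only for Csn2 and Csn1s2a. The numbers were 2, 6 and 5 genes in WT/WT, 7, 5, 2, 8 and 3 in WT/R249C, and 6, 3 and 4 in R249C/R249C, in replicate order. The ranges of the 3 genotypes overlap. Apart from the value of 3 counts, no member value above 0 was under 15 counts. After thinning to the smallest total (mean of 10 draws), the 4 libraries with 2 or 3 members held 22101 to 25432 genes of any kind, and the 7 with 4 or more held 24156 to 30104. The part of the number of detected genes in the member counts was not tested. The part of the way the counts were made in the scarcity of values from 1 to 9 was not tested.

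For beta-casein no difference between genotypes was larger than the spread of the libraries. Csn2 was at 22.4, 94.4 and 104 CPM in WT/WT replicates 1, 2 and 3. In WT/R249C replicates 1 to 5 it was at 219.6, 37.5, 61.6, 221 and 81.3 CPM, and in R249C/R249C replicates 1 to 3 at 81.0, 75.0 and 80.4 CPM. The 3 R249C/R249C libraries lie close together, with an SD of 3.31 CPM around a mean of 78.8, and inside the range of both other genotypes, whose SDs were 44.5 around 73.6 in WT/WT and 89.0 around 124 in WT/R249C. The lowest library, WT/WT replicate 1, is alone in standing for its genotype in batch A. It also had the lowest summed CPM of the 13 mature medullary markers, Aire among them, at 3013 against 3586 to 5754 in the others. Its sum of the epithelial markers was the lowest too, at 3894 CPM. Its thymocyte sum was the highest, at 213 CPM, as was its level of the leukocyte gene Ptprc, at 26.2 CPM. The part of these in the low Csn2 value was not tested.

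Differences between genotypes were tested with the quasi-likelihood test of edgeR over all genes, with Benjamini-Hochberg adjustment and a threshold of 0.05. For R249C/R249C against WT/WT the log2 fold change of Csn2 was 1.04 (SE 0.87, 95% interval -0.94 to 3.01, adjusted p = 1) in the fit with batch as a term. Without that term it was 0.16, and within batch A, where 1 WT/WT library stands for the genotype, it was 1.82 (adjusted p = 0.865). For WT/R249C against WT/WT it was 1.27 (SE 0.70, interval -0.32 to 2.86, adjusted p = 1). Within batch A that difference was 2.24 and within batch B, which rests on the libraries with contradicting labels, 0.66. For R249C/R249C against WT/R249C, in the 6 mutant libraries of batch A, Csn2 gave -0.42 (SE 0.67, interval -2.07 to 1.22, adjusted p = 1). Without WT/R249C replicate 1, the batch A library with the highest Csn2, the sign turned to 0.76 (adjusted p = 1). The difference of WT/R249C from WT/WT was not shown to differ between the batches (interaction -1.58 on the log2 scale, batch B minus batch A, edgeR adjusted p = 0.941).

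Csn1s2a, whose protein belongs to the calcium-sensitive caseins like those of Csn1s1 and Csn2, showed the same lack of order by genotype. It was at 2.46, 1.19 and 14.1 CPM in WT/WT, at 12.9, 4.15, 0.0495, 9.90 and 19.5 CPM in WT/R249C, and at 6.45, 2.36 and 6.16 CPM in R249C/R249C, in replicate order. WT/R249C holds both the lowest and the highest library, and the other genotypes lie within its range. For R249C/R249C against WT/WT its log2 fold change was 0.92 (SE 1.68, interval -2.89 to 4.74), and without the batch term -0.16. It was 1.10 (SE 1.36, interval -1.99 to 4.18) for WT/R249C against WT/WT, with 1.24 within batch A and 1.00 within batch B. For R249C/R249C against WT/R249C it was -0.21 (SE 1.55, interval -4.01 to 3.59), and 1.25 without WT/R249C replicate 1 and 0.16 without R249C/R249C replicate 2. The adjusted p was 1 in the 3 comparisons.

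**Figure D2:**
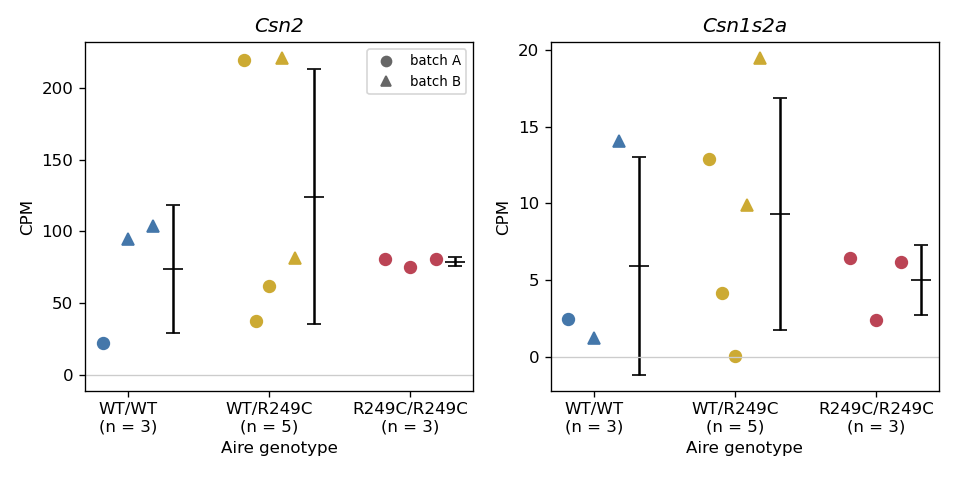
CPM of Csn2 (left) and Csn1s2a (right) in each library by Aire genotype, with circles for batch A and triangles for batch B, and the mean ± SD of each genotype as a black bar. For Csn2 the 3 R249C/R249C libraries lie between 75.0 and 81.0 CPM, within the range of WT/WT and of WT/R249C.

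**Figure D3:**
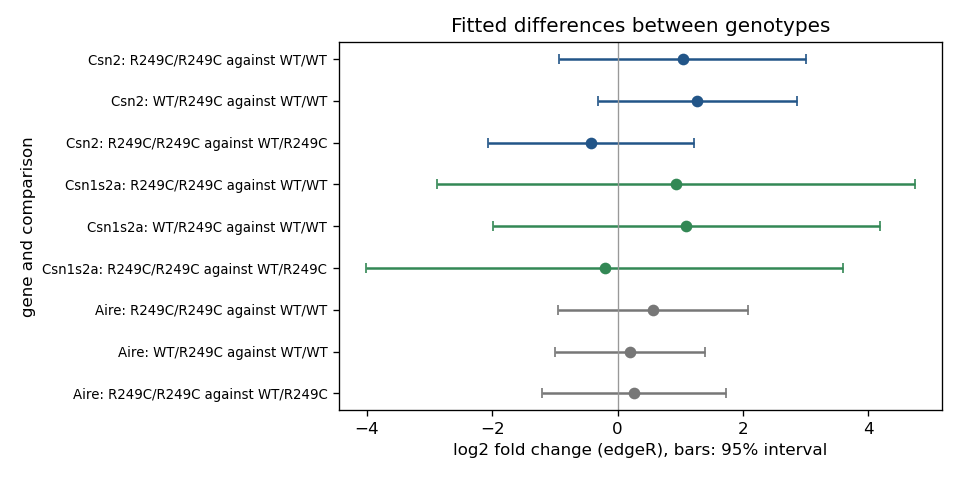
Log2 fold changes of Csn2, Csn1s2a and Aire between Aire genotypes from the edgeR fits (points) with 95% intervals (bars). Each of the 9 intervals spans 0.

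The remaining caseins were found in a part of the libraries of every genotype. Csn3, kappa-casein, which caps the surface of casein micelles, was at 0, 6.49 and 2.35 CPM in WT/WT, at 1.37, 0.169, 0, 2.33 and 0 in WT/R249C, and at 1.46, 0 and 1.42 in R249C/R249C. Both WT/WT values above 0 and the highest WT/R249C value, that of replicate 4, are from batch B. Csn3 overlaps 1700066N21Rik on the opposite strand in GENCODE M21, and that gene had 0 counts in each library. Csn1s1, alpha-S1-casein, was at 0, 0 and 2.28 CPM in WT/WT, at 5.23, 0, 0, 3.63 and 0 in WT/R249C, and at 0.667, 0 and 0 in R249C/R249C. Its 2 highest libraries, WT/R249C replicates 1 and 4, are also the 2 highest for Csn2. Csn1s2b, a close relative of Csn1s2a in the cluster, was at 0, 1.39 and 0 CPM in WT/WT, at 0.415, 0.380, 0, 0.611 and 7.06 in WT/R249C, and at 0, 0.802 and 0 in R249C/R249C. A single library, WT/R249C replicate 5, gave 66.2% of its summed CPM. No 2 of the 8 genes share a word of 31 bases in their GENCODE M21 transcripts.

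Wap and Glycam1 were the members for which a whole genotype was at 0. Wap, whey acidic protein, a small protein with protease-inhibitor folds, was at 0 in the 3 WT/WT libraries, at 0.760, 0, 0, 0.271 and 0 CPM in WT/R249C and at 0.454, 0 and 1.47 CPM in R249C/R249C. Taking the counts as reads, with a limit of 3 over the WT/WT libraries, its mean was at least 87.9-fold higher in R249C/R249C, where it was found in 2 of 3 libraries. This bound was 31.1-fold without R249C/R249C replicate 3 and 48.9-fold without WT/WT replicate 3. In WT/R249C, where Wap was found in 2 of 5 libraries, its mean was at least 28.3-fold higher, which was 9.29-fold without WT/R249C replicate 1 and 15.7-fold without WT/WT replicate 3. Neither difference passed in edgeR (adjusted p = 1 for both), and the groups overlap at 0. Lalba, alpha-lactalbumin, was found in 1 library of each genotype, at 0.648 CPM in WT/WT replicate 2, 0.116 in WT/R249C replicate 4 and 0.356 in R249C/R249C replicate 1.

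Glycam1 encodes a mucin-like protein of milk that is also made by high endothelial venules of lymph nodes, where it binds L-selectin on lymphocytes. It was at 0, 1.62 and 0.373 CPM in WT/WT, at 0.436, 7.05, 0, 0.240 and 0 CPM in WT/R249C, and at 0 in all 3 R249C/R249C libraries. Taking the counts as reads, with a limit of 3 over R249C/R249C, its mean was at least 68.2-fold lower there than in WT/WT. This bound covers counting error only and not the spread between libraries. Without WT/WT replicate 2 it was 19.1-fold, and without R249C/R249C replicates 1 and 2 in turn 43.3-fold and 45.3-fold. It did not pass in edgeR (adjusted p = 1), while DESeq2 called it lower (adjusted p = 5.79e-07), and 1.63% of the genes with an adjusted p were called by it in either direction. The DESeq2 log2 fold change was -25.88 (SE 4.295), fitted to a group at 0, so it is no measure of size. The edgeR fit gave -12.15 (SE 7.402) and limma voom -6.02 (adjusted p = 0.9997). All counts of WT/WT are from batch B and all R249C/R249C libraries are from batch A, where WT/WT replicate 1 was also at 0. In this comparison genotype and batch thus cannot be told apart for Glycam1. In batch A, 2 of 3 WT/R249C libraries had counts, nearly all of them in replicate 2. Against these 3, R249C/R249C was at least 256-fold lower by the same bound, and 22.4-fold without WT/R249C replicate 2. With no filter on low counts, edgeR gave -11.05 there (unadjusted p = 0.0447, adjusted 0.821), also fitted to a group at 0. The library with the highest Glycam1, WT/R249C replicate 2, also had the highest summed CPM of the 7 endothelial markers, at 312.5 against 64.7 to 220.5 in the other libraries. Its sum of the 9 high endothelial venule genes was 248.9 CPM, within the range of 196 to 324 over all libraries. Of these genes, St3gal6 alone was at 84.5 to 149 CPM over the libraries. The part of endothelial RNA in the Glycam1 values was not tested.

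Of the 8 members, edgeR called 0 in R249C/R249C against WT/WT, 0 in WT/R249C against WT/WT and 0 of the 5 that passed the filter on low counts in R249C/R249C against WT/R249C, and none of them had an unadjusted p under 0.05. Csn1s1, Lalba and Glycam1 were the 3 that did not pass the filter there. Limma voom called 0 members in each comparison. Over all genes edgeR called 0%, 0% and 0%, with 3.21%, 3.48% and 1.08% at an unadjusted p under 0.05. DESeq2 called 1, 0 and 0 members, with an adjusted p of 0.494 for Csn2 in WT/R249C against WT/WT, against 1.63%, 1.09% and 0.157% of the genes with an adjusted p. It gave no p for Csn1s1, Csn1s2b and Csn3 in the first 2 comparisons and none for Csn1s2b in the third. In 0 of 8, 0 of 8 and 0 of 5 members did the 2 genotypes not overlap in CPM, against 8.1%, 2.93% and 8.85% of all genes tested.

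For R249C/R249C against WT/WT 6 of the 8 fitted log2 fold changes were above 0, with a median of 1.02 against -0.02 over all genes. Wap and Glycam1 were the highest and the lowest of the 8, so setting them to the bounds given above could not move the median. With no batch term 2 of 8 were above 0 and the median was -0.78, so the direction depends on the batch term. With 1 library left out the median ranged from 0.57 to 4.09. It was lowest with WT/WT replicate 1 left out and highest with WT/R249C replicate 1 left out. It was 0.62 without R249C/R249C replicate 1, 1.77 and 2.60 without WT/WT replicates 2 and 3 in turn, and 3.16 without WT/R249C replicate 5. Within batch A it was 7.17, but there WT/WT is replicate 1 alone, which had counts only for Csn2 and Csn1s2a. The other members are set against a 0 there, so 7.17 is no measure of size. In that fit Csn2 gave 1.82 and Csn1s2a 1.03. The epithelial markers lay on the same side, with 7 of 7 above 0 (median 0.34), as did 10 of 13 mature medullary markers (median 0.57). So did 6 of 7 cortical epithelial (0.59), 6 of 7 myeloid (1.16), 5 of 7 endothelial (0.30) and 4 of 6 fibroblast markers (0.05). All 8 thymocyte markers tested and all 7 B cell markers were below 0. For WT/R249C against WT/WT 5 of 8 were above 0, with a median of 1.18 against 0.02 over all genes and 1.03 with no batch term. Wap was the highest of the 8, so setting it to its bound could not move the median. The median was 0.66 within batch B. Within batch A it was 7.81, set against the same 0 counts of WT/WT replicate 1, while Csn2 gave 2.24 and Csn1s2a 1.24 in that fit. With 1 library left out the median ranged from 0.57 (WT/R249C replicate 1) to 3.14 (WT/R249C replicate 5), with 0.71 for WT/WT replicate 1. Of the epithelial markers 7 of 7 were above 0 (median 0.39), and of the mature medullary markers 9 of 13 (median 0.20). The same held for 6 of 7 cortical epithelial (0.62), 6 of 7 endothelial (0.43) and 5 of 7 myeloid markers (0.14). Below 0 were 7 of 8 thymocyte, 7 of 7 B cell and 5 of 6 fibroblast markers. The part of epithelial and other cell content in the members' medians was not tested. For R249C/R249C against WT/R249C 2 of 5 were above 0 and the median was -0.03 against 0.01, and with 1 library left out it ranged from -0.73 (WT/R249C replicate 3) to 1.25 (WT/R249C replicate 1). The first 2 comparisons share the WT/WT libraries.

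The levels of the milk proteins were set against that of Aire over the 11 libraries for the 4 members with counts in at least 6. On log2(CPM + 1), Csn2 had a Pearson r of 0.55 (permutation p = 0.0798, adjusted over the 4 relations 0.319) and a Spearman rho of 0.34 (permutation p = 0.311, adjusted 0.534). Within the 7 libraries of batch A these were 0.58 and 0.54 (permutation p = 0.174 and 0.236), and batch B has 4 libraries, too few for a value. Without the 2 libraries farthest from the median of Aire, WT/R249C replicate 2 and WT/WT replicate 1, r was 0.09 and rho -0.20, so the relation of Csn2 rests on those libraries. They are the 2 libraries lowest in Aire and also the 2 lowest in Csn2.

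For Csn1s2a r was 0.18 (permutation p = 0.588) and rho 0.20 (permutation p = 0.557), for Csn3 0.36 (permutation p = 0.285) and 0.28 (permutation p = 0.401), and for Csn1s2b -0.28 (permutation p = 0.411) and -0.49 (permutation p = 0.134). The adjusted p ranged from 0.319 to 0.588 over the 8 values. Without the same 2 libraries Csn1s2b had a rho of -0.89 (permutation p = 0.00331, adjusted 0.0132) and an r of -0.66 (permutation p = 0.0372, adjusted 0.149), over 9 libraries of which 4 had no count of it. Within batch A its rho was -0.47 (permutation p = 0.286).

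**Figure D4:**
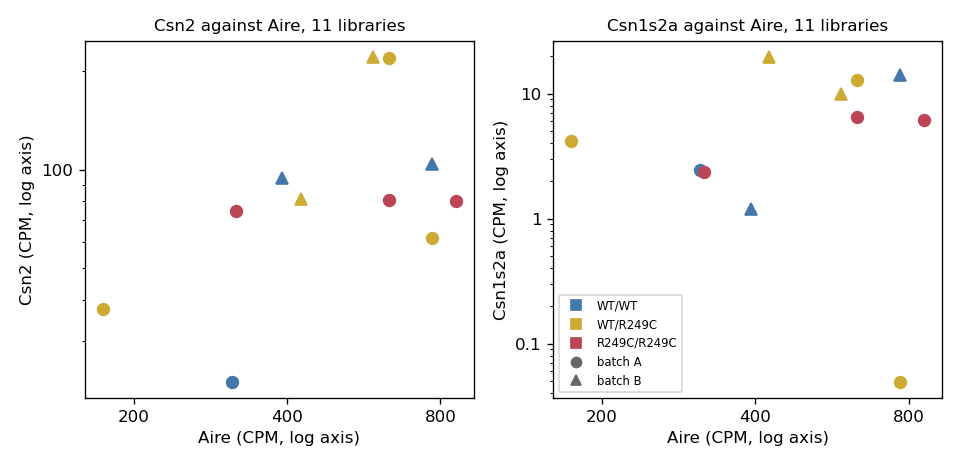
CPM of Csn2 (left) and Csn1s2a (right) against CPM of Aire in the 11 libraries, both axes on a log scale, coloured by Aire genotype, with circles for batch A and triangles for batch B. WT/R249C replicate 2 and WT/WT replicate 1, at 174 and 312 CPM of Aire, are the lowest in Aire and in Csn2.

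Among the members themselves, the 6 pairs of these 4 genes were compared in the same way. Csn2 and Csn3 had a rho of 0.67 (permutation p = 0.0304, adjusted 0.167) and an r of 0.57 (permutation p = 0.0664, adjusted 0.399), and Csn2 and Csn1s2a a rho of 0.60 (permutation p = 0.0557, adjusted 0.167) and an r of 0.48 (permutation p = 0.139, adjusted 0.416). Without the 2 libraries farthest from the median of Csn2 and of Csn1s2a in turn, r was 0.45 for the first pair and 0.66 for the second. Within batch A the same pairs had rho values of 0.70 (permutation p = 0.105) and 0.71 (permutation p = 0.0889). Csn1s2a and Csn3 had a rho of 0.21 (permutation p = 0.532) over all libraries and of 0.85 (permutation p = 0.0280, adjusted 0.168) within batch A. No pair passed after adjustment. The neighbouring genes Csn1s2a and Csn1s2b had a rho of 0.12 (permutation p = 0.72).

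Many genes followed Csn2 and Csn1s2a more closely over the libraries than these 2 genes followed each other. Among 14922 named genes with a mean of at least 1 CPM, those with the highest Spearman rho with Csn2 over the 11 libraries were Sprr1a, a cornified-envelope protein of squamous epithelium, Vim, an intermediate filament protein, and Calca, the precursor of calcitonin and CGRP, each at 0.95. For Csn1s2a they were Dhrs2, a short-chain dehydrogenase, at 0.96, Irf4, a transcription factor of lymphocytes and dendritic cells, at 0.96, and Crct1, a gene of the epidermal differentiation complex, at 0.96. These are the most extreme of 14922 values each, chosen from the same libraries, and are given as a description. By the same measure Csn1s2a ranked 1109 for Csn2 and Aire ranked 3433, and for Csn1s2a, Csn2 ranked 1036 and Aire 5259.

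The machinery that drives milk genes in the mammary gland was in part present. Of the 16 regulators listed, 14 had counts in every library. Prlr, the prolactin receptor, was at 0.229 to 45.8 CPM over the libraries, Jak2 at 8.95 to 51.2, Stat5a at 65.7 to 247 and the Stat5 target Cish at 75.9 to 121. Elf5, a regulator of the alveolar lineage of the mammary gland, had counts in 7 of 11 libraries, at up to 6.51 CPM. Among 8 markers of mammary epithelium, Acta2, also a smooth muscle gene, was at 132 to 458 CPM and the other 7 summed to 119 to 219 CPM, while Oxtr, the oxytocin receptor of myoepithelium, had 0 counts in each library. No regulator passed in edgeR in any of the 3 comparisons. The regulators with the smallest p were Gata3, a zinc-finger factor of luminal and lymphoid cells, Stat5b, the estrogen receptor Esr1, and Cebpb, a leucine-zipper factor. For WT/R249C against WT/WT, Gata3 was at 21.6 ± 5.25 against 48.7 ± 13.4 CPM (n = 5 and 3, log2 fold change -1.17), Stat5b at 42.0 ± 6.57 against 58.7 ± 3.51 (-0.51), Esr1 at 38.4 ± 9.96 against 73.3 ± 31.97 (-0.95) and Cebpb at 25.2 ± 9.51 against 68.4 ± 16.8 (-1.44), each with an edgeR adjusted p of 1. There 5 of the 16 were at an unadjusted edgeR p under 0.05, against 3.48% of all 26980 genes tested. In that comparison 6 of the 16 were above 0 and 10 below, with a median of -0.15. Of the 8 thymocyte markers tested, 7 were below 0 there (median -0.84) and 8 in R249C/R249C against WT/WT (median -0.98). Of the 6 fibroblast markers, 5 were below 0 in WT/R249C against WT/WT (median -1.68). In R249C/R249C against WT/WT 2 of these 6 were below 0 and 4 above (median 0.05). All 7 B cell markers were below 0 in both comparisons (medians -0.996 and -1.03). The part of these 3 cell types in the regulators' values was not tested. Of the regulators, 7 were above 0 and 9 below in R249C/R249C against WT/WT (median -0.18). In R249C/R249C against WT/R249C 11 regulators were above 0 and 5 below (median 0.24).

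Other products of the milk-secreting cell, most of them made in many epithelia, were found in more libraries than most of the 8 milk proteins. Of 20 such genes, 14 had counts in every library, among them Wfdc18, a small protein related to Wap, at 193 to 837 CPM, Xdh, the xanthine oxidoreductase of milk fat globules, at 210.0 to 655 CPM, and Lpo, lactoperoxidase, at 69.4 to 378 CPM. Btn1a1, the butyrophilin of milk fat globules, had counts in 3 libraries, at up to 0.279 CPM. None of the 19 tested passed in any comparison. Above 0 were 13, 14 and 14 of 19 in the order of comparisons used above, with medians of 0.43, 0.26 and 0.22. Lcn2, the siderophore-binding lipocalin, had the smallest p, at 4.29 ± 0.955 CPM in R249C/R249C against 15.4 ± 3.70 in the WT/R249C libraries of batch A (n = 3 and 3, log2 fold change -1.80, edgeR adjusted p = 1). Saa3, an acute-phase protein, was at 29.5 ± 20.2 CPM in WT/R249C against 15.8 ± 4.61 in WT/WT (1.12, edgeR adjusted p = 1).

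Genes beside or within the casein cluster were in part without counts. Of 14 listed neighbours, 13 were matched to the table. Of these, 5 had 0 counts in every library, while 40154 of all 56691 genes had any count. The filter on low counts was passed by 5, with 0 called in any comparison. Of those 5, 1, 3 and 1 were above 0 in the same order, with medians of -2.76, 1.14 and -2.48. Odam, an ameloblast protein whose gene lies between Csn1s2b and Csn3, had counts in 9 libraries, at up to 3.17 CPM. Sult1d1, a sulfotransferase, was at 0.139 ± 0.241 CPM in R249C/R249C against 5.32 ± 6.21 in the WT/R249C libraries of batch A (log2 fold change -5.07, edgeR adjusted p = 1). Smr3a, a submaxillary gland protein, was at 0 in WT/WT, 0.0945 ± 0.164 CPM in WT/R249C and 0.661 ± 0.583 in R249C/R249C (edgeR adjusted p = 1 for R249C/R249C against WT/WT).

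Of the 9 high endothelial venule genes, tested because Glycam1 is also made there, 0 passed in any comparison, with 7 of 9, 7 of 9 and 4 of 7 above 0 and medians of 0.24, 0.42 and 0.06. Ackr1, an atypical chemokine receptor of venules, was at 22.9 ± 14.8 CPM in WT/R249C against 6.14 ± 3.61 in WT/WT (log2 fold change 2.24, edgeR adjusted p = 1). Chst4, a sulfotransferase that acts on L-selectin ligands, was found in 4 libraries, at 1.51 ± 1.69 CPM in R249C/R249C, where Glycam1 was at 0, and at 0.0219 ± 0.0380 in WT/WT (edgeR adjusted p = 1).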

How the data were processed

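RNA from sorted thymic epithelial cells was examined in 11 libraries, grouped by the genotype in the title. The authors deposited a table of counts, as whole numbers for each gene in each library. The sources used here do not say whether these are tallied reads or were computed from coverage. The tools named in the submitters' processing notes are StringTie, HISAT2 and FastQC, with build mm39 and no versions. The annotation release was not stated. Per the file headers, only the batch A columns are marked as trimmed.

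Symbols came from GENCODE M21 names (52073 of 56691 identifiers matched). Totals ran from 60560348 to 182319976 counts. CPM was computed over column totals. Differences were tested in R 4.3.3 with edgeR 4.0.16 (TMM, filterByExpr, robust quasi-likelihood test, two-sided, Benjamini-Hochberg over all genes tested, threshold 0.05). Both comparisons with WT/WT came from 1 model of the 11 libraries that included batch, and the mutant genotypes were compared in the 6 mutant libraries of batch A. DESeq2 1.42.0 and limma 3.58.1 (voom) were run beside edgeR. The edgeR step was also run on simulated counts, whose outcome is not given here and is not used for any result. Correlations used log2(CPM + 1), with 100000 random permutations for each p-value, also within batch A, where fewer distinct orders exist. Ranks and the adjustment came from SciPy 1.17.1.

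The 8 members and the accompanying lists were chosen with earlier results of these data known. All members and Aire are named, with up to 4 genes of smallest p from each accompanying list and the 3 genes most like Csn2 and Csn1s2a. Prlr, Jak2, Stat5a, Cish, Elf5, Oxtr, Wfdc18, Xdh, Lpo, Btn1a1 and Odam fall outside that rule and were chosen after their values were seen. Alternatives were scaling, filters, tools, batch, the contested labels, a replicate block and leaving out each library. The pairs of members, the interaction, the thinning, the bounds and medians with libraries left out and the marker sums without their top gene were added after seeing the data.

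The same-numbered libraries had correlations of deviations from -0.13 to 0.13, so the numbers were not taken to pair libraries.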

Additional observations from a re-analysis of the deposited data

Results flagged for a closer look

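In 3 of 9 tests of the WT/R249C libraries (the 8 milk proteins and Aire), the highest library stood farther from the rest than Dixon's criterion allows, which chance does for about 1 in 20 groups of normally distributed values. Genes at 0 in most libraries exceed it more easily, so that rate is no measure here. Csn1s2b was at 7.06 CPM in WT/R249C replicate 5, with the other 4 libraries at up to 0.611 CPM. Glycam1 was at 7.05 CPM in WT/R249C replicate 2, with the others at up to 0.436 CPM. Lalba was at 0.116 CPM in WT/R249C replicate 4, the only WT/R249C library with a count of it, and 1 such value among zeros always exceeds the criterion.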

How the results depend on the processing

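DESeq2 called 408 genes for R249C/R249C against WT/WT, 274 for WT/R249C against WT/WT and 33 for R249C/R249C against WT/R249C, and 1 member (Glycam1, first comparison), where edgeR called 0. Leaving out each library kept edgeR at 0 genes and 0 members in the 3 comparisons. Over those fits the log2 fold change of Csn2 ran from 0.29 to 1.66, from 0.66 to 1.75 and from -0.83 to 0.76 in the same order, and that of Csn1s2a from 0.60 to 1.66, from 0.49 to 2.11 and from -0.79 to 1.25. For R249C/R249C against WT/R249C the sign turned without WT/R249C replicate 1 (Csn2 0.76, Csn1s2a 1.25) and without R249C/R249C replicate 2 (Csn1s2a 0.16). Without a batch term Csn1s2a gave -0.16 for R249C/R249C against WT/WT. With the replicate block Csn2 gave 2.81 (edgeR adjusted p = 0.919), 2.77 (0.912) and 0.046 (0.999), and Csn1s2a 0.63 in the third comparison. The block called 0 genes in the 3 comparisons. Without the 2 libraries farthest in Aire, rho with Aire turned to -0.20 for Csn2 and -0.033 for Csn1s2a, and passed the threshold for Csn1s2b at -0.89. The causes were not tested. With WT/R249C replicates 4 and 5 left out, Csn2 gave 1.81 and 2.24 in the first 2 comparisons, and with both counted as R249C/R249C it gave 1.12, 1.69 and -0.57, and edgeR called 0 members in either case. If the counts are tallied reads, a count of 0 limits a member only to under 0.0165 to 0.0495 CPM.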
